A study of Mus musculus with 18 samples.

Results

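The genes described here are the NFAT transcription factors and the calcium-activated phosphatase that controls them. The set held 8 of the 20703 genes in the deposited table, chosen by symbol, and all 8 were measured. They were Nfatc1, Nfatc2, Nfatc3 and Nfatc4, which encode the calcium-responsive NFAT proteins, Nfat5, which encodes the tonicity-responsive relative, Ppp3ca and Ppp3cb, which encode catalytic subunits of calcineurin, and Rcan1, which encodes a regulator of calcineurin. The set was chosen with the lower Nfatc2 of the knockout cells in view, so the KO versus WT difference of Nfatc2 is given as a description with no test.

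RNA was profiled in E14 mouse embryonic stem cells (mESCs), a line of embryonic origin, that were WT or knocked out (KO) for Nsd1, an H3K36 methyltransferase. The 18 libraries comprised WT cells and the clonal lines KO-1 and KO-2, each collected at day 0, 2 and 4 after removal of leukemia inhibitory factor (LIF) and the embryonic fibroblast (MEF) feeders, with 2 libraries per line and day. In both KO lines exon 5 of Nsd1 had been deleted with Cas9 in cells that carried an Nsd1-3×Flag knock-in, and whether the WT cells of these libraries carried the tag was not given in the sources used here. Each KO group of 4 libraries therefore holds 2 clones, not 4 separate knockouts, and the spread between libraries of 1 line is a replicate error for that line only. Library totals ranged from 9309874 to 23921193 counts over all genes, with a median of 15721348, and the shallowest were the WT libraries of day 2, at 9309874 and 9356867.

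In resting cells the NFATc proteins are held in the cytoplasm in a phosphorylated form. A rise in calcium activates calmodulin and then calcineurin, which strips the phosphates and lets the factors enter the nucleus, where they often bind DNA beside AP-1 or GATA proteins, while kinases such as GSK3, DYRK and casein kinase 1 send them back out. Nfat5 lacks the calcineurin docking region and responds to hypertonic stress. The pathway is best known from T-cell activation, heart valve and vessel formation, and bone, and mRNA levels say nothing of where the proteins reside.

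Values below are normalized counts, recovered from the deposited numbers, which were on the log2-like scale (VST) of DESeq2's variance stabilizing transformation. A log2 fold change is a difference on that VST scale, which understates changes in counts, most of all for genes with low counts. limma was run across all 20703 genes, and a gene was called where its Benjamini-Hochberg adjusted p fell below 0.01 and its log2 fold change exceeded 0.58 in size. On this scale that threshold is stricter than on log ratios of counts, and at day 0 limma called 541 genes in KO versus WT and limma-voom, on the recovered counts, 2752. A gene written as below the fold threshold can therefore differ by more than 1.5-fold in its counts.

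Nsd1 itself was checked first. In WT cells it stood at 3374 and 3660 normalized counts at day 0, 2773 and 3344 at day 2, and 2425 and 2111 at day 4. The KO libraries ranged from 635 to 837 at day 0, from 854 to 1024 at day 2 and from 575 to 1103 at day 4. All 12 KO libraries lay below all 6 WT libraries. Counts are per gene, so the deleted exon was not measured apart from the rest of Nsd1.

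Promoter windows are shown for the genes on which the results turn. Each spans 250 bases before to 50 after a RefSeq transcription start in GRCm38.p6, a different build from the mm39 alignment, and is written 5′ to 3′ on the strand of the gene. The core of the NFAT site, GGAAA, and its reverse complement TTTCC are in capitals, searched on both strands, and the same letters lie within many sites for NF-κB and ETS factors. The windows kept for the set covered 6 of the 8 genes and left out Nfatc1 and Ppp3ca. This does not show that RefSeq lacks a start for either gene. Of 32851 windows in the table, 61.3% held at least 1 such match and 9.42% held 3 or more, so that a match is a description and not a binding site. Both starts of Nfatc2 are given because the lower Nfatc2 of KO cells defined the set, Nfatc4 because it was called in both genotypes over time, and both starts of Rcan1 because its internal start is a classical target of NFAT itself. The upstream Nfatc2 window, at chr2:168601608-168601907 on the minus strand, held 3 matches, and the downstream one, at chr2:168590316-168590615, held 1. The Nfatc4 window at chr14:55824545-55824844 on the plus strand held 3. For Rcan1, on the minus strand, the distal window at chr16:92466120-92466419 held 0 and the internal one at chr16:92400029-92400328 held 3.
Nfatc2 upstream start: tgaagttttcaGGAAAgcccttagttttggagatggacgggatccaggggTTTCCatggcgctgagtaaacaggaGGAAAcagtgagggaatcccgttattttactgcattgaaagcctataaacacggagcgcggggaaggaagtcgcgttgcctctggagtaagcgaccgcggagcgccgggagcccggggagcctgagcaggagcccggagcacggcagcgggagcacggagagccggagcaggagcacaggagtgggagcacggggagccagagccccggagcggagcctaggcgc
Nfatc2 downstream start: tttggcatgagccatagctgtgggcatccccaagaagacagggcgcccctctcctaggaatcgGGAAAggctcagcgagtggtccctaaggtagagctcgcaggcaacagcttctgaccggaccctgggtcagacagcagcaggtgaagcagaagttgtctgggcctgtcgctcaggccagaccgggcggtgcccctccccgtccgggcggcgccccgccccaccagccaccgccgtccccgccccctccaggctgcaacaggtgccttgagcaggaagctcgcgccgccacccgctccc
Nfatc4: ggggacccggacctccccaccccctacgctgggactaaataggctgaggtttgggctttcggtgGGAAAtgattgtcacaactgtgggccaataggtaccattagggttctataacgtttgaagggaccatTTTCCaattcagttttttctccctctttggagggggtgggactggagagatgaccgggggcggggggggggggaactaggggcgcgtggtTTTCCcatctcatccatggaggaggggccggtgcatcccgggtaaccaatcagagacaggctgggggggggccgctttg
Rcan1 distal start: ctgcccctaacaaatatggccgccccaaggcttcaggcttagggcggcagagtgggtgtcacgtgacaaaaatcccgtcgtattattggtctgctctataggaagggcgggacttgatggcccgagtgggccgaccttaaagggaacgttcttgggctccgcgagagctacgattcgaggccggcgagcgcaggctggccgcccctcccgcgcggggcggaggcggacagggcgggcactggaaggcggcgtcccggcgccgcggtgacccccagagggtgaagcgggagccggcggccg
Rcan1 internal start: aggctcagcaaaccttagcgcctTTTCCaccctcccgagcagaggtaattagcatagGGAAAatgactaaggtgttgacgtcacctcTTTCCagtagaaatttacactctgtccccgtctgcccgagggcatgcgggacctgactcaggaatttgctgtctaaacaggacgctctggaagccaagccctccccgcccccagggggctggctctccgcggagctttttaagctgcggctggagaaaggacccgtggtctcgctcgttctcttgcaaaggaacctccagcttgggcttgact

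Nfatc2 was lower in KO cells at each day (the plot of all libraries by line and day). At day 0 the WT libraries had 231 and 214 normalized counts, the KO-1 libraries 46.6 and 44.2, and the KO-2 libraries 42.6 and 43.0. The WT mean of 223 ± 12.1 (SD, n = 2) was 5.06-fold the KO mean of 44.1 ± 1.79 (SD, n = 4). At day 2 the WT libraries had 116 and 143 against 9.75 and 40.7 in KO-1 and 25 and 35.8 in KO-2, a 4.65-fold ratio of means. At day 4 they had 184 and 156 against 69.9 and 42.9 in KO-1 and 39.2 and 43.8 in KO-2, a 3.47-fold ratio. The WT and KO libraries did not overlap at any day. On the VST scale the differences were -0.63, -0.48 and -0.47 at day 0, 2 and 4. The 2 Nfatc2 windows printed above belong to starts that gene-level counts cannot separate.

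**Figure D1:**
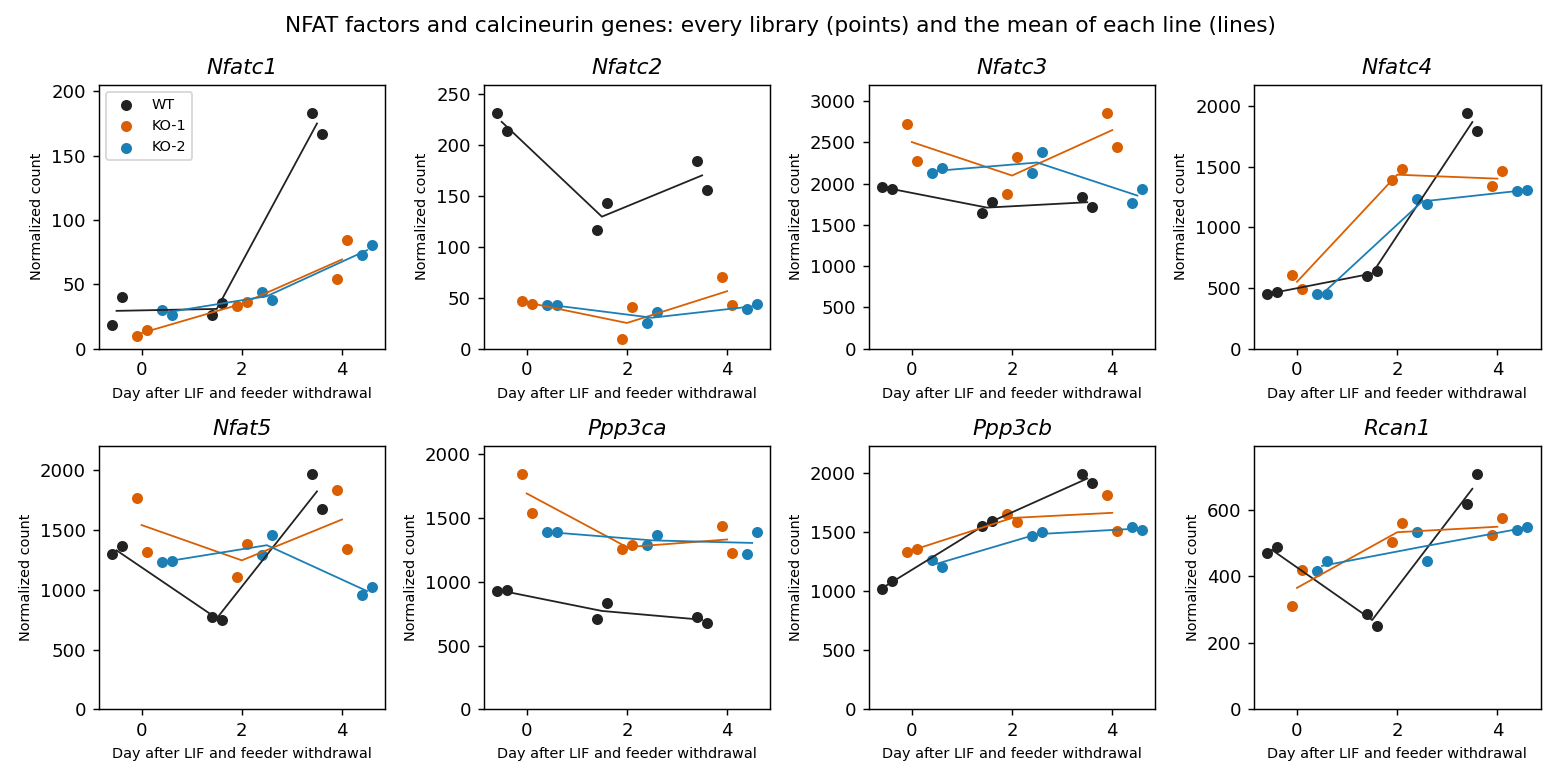
Normalized counts (linear vertical axes from 0, scaled per gene) of the 8 genes at day 0, 2 and 4 in WT, KO-1 and KO-2; points are single libraries and lines join the means of the 2 libraries of each line. Nfatc2 runs from 116 to 231 in WT and from 9.75 to 69.9 in KO, and the KO libraries of Nfatc4 and of Rcan1 lie above WT at day 2 and below WT at day 4.

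Changes of Nfatc2 over time were tested within genotypes, since the choice of the set did not use them. In WT the mean at day 2 was 0.579 of that at day 0 and the libraries did not overlap, with a log2 fold change of -0.27 ± 0.07 (SE) and an adjusted p of 0.00452 (limma), below the fold threshold. From day 0 to day 4 in WT the log2 fold change was -0.14 with an adjusted p of 0.105. In KO cells the mean at day 2 was 0.631 of that at day 0, also with no overlap, a VST difference of -0.12 that was not called (adjusted p = 0.0677, limma). limma-voom gave -0.80 in WT and -0.84 in KO for this step and called neither (adjusted p = 0.025 and 0.0484). At day 4 the KO value differed from day 0 by 0.02 (adjusted p = 0.731, limma). KO-1 and KO-2 differed in Nfatc2 by 0.02, -0.06 and 0.08 on the VST scale at day 0, 2 and 4, with 95% confidence limits over the 3 days from -0.20 to 0.22. limma-voom bounded the clones less tightly. It gave 0.07, -0.55 and 0.32, none called, with limits over the 3 days from -1.59 to 1.02. The lowest Nfatc2 count of a library was 10.

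The mouse fibroblast markers, which could report feeder RNA, differed in sum from Nfatc2 at day 0. Their summed level over 10 genes was 3326 to 3467 normalized counts in WT and 5075 to 5957 in KO at day 0, higher in KO, where Nfatc2 was lower. The collagens carried that sum, and Lox (170 in WT and 397 in KO) and Postn (29.7 and 52.4) also averaged higher in KO. Pdgfrb, a growth factor receptor of the same list, averaged 523 in WT and 182 in KO, lower as Nfatc2 was. Thy1 averaged 338 and 348. At day 2 the sum was 1089 to 1260 in WT and 664 to 843 in KO. At day 4 the sum was 2676 to 2812 in WT and 655 to 1388 in KO. At both days it was lower in KO, as Nfatc2 was. The day 4 sum again rested mainly on Col1a1 (1583 in WT and 492 in KO), called lower with Pdgfrb (457 and 26), whereas Lox averaged 24.7 in WT and 91.9 in KO and Postn 4.54 and 11.8, neither called. Col1a1, a fibrillar collagen that mesoderm also expresses, was the most abundant of the list in all 18 libraries, and Lum, a fibroblast proteoglycan, was at 0 in all 6 libraries of day 0. The part of these cells in the Nfatc2 differences was not tested at any day. In bulk RNA, fewer cells of a type and less RNA per cell cannot be told apart.

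Leukocyte markers were checked because NFATc2 is best known from T cells. Over the 3 listed genes found in the table, Ptprc, Cd3e and Itgam, the sum was 35.2 to 101 normalized counts in WT and 60.3 to 120 in KO at day 0, 39.1 to 48.6 and 129 to 166 at day 2, and 48.0 to 91.6 and 100 to 162 at day 4. Cd3e, a T-cell receptor component, was called higher in KO at day 2, where it averaged 114 against 5.69 in WT, and at day 4, where it averaged 76.8 against 2.01. The higher KO sums of those days rest on Cd3e, since Ptprc averaged 16.2 in WT and 12.1 in KO at day 2 and 50.1 and 32.5 at day 4, and Itgam 21.9 and 13.4, then 17.6 and 18.4. At day 0 Cd3e averaged 23.4 in WT and 76.3 in KO. Ptprc averaged 30.2 and 8.13 then, and Itgam 14.3 and 3.9, both lower in KO as Nfatc2 was. limma called 0 of the 3 at day 0. Nfatc2 was lower in KO at each of these days, and the part of leukocytes in that difference was not tested.

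Among the other 7 genes, limma called 0 in KO versus WT at day 0, 1 at day 2 (Nfatc4) and 1 at day 4 (Ppp3ca). Of all genes, 2.61% were called at day 0, 1.73% higher and 0.879% lower. The shares were 6.38% at day 2, 4.01% higher and 2.37% lower, and 7.58% at day 4, 3.67% higher and 3.91% lower. At day 0, 2 and 4, 3, 5 and 7 of the 7 had an unadjusted p under 0.05. limma-voom, run on the recovered counts with the same thresholds, called 1, 4 and 2 of the 7, against 13.3%, 23.9% and 23.9% of all genes. The KO and WT libraries did not overlap for 4 of the 7 genes at day 0 and for 5 at each of day 2 and day 4, against 47.4%, 57.5% and 49.8% of all genes. Over the whole table the median of the log2 fold changes was -0.003, -0.02 and 0.0 on the VST scale, and with limma-voom -0.14 at day 2 and 0.13 for the KO effect at day 4 minus that at day 2.

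**Figure D2:**
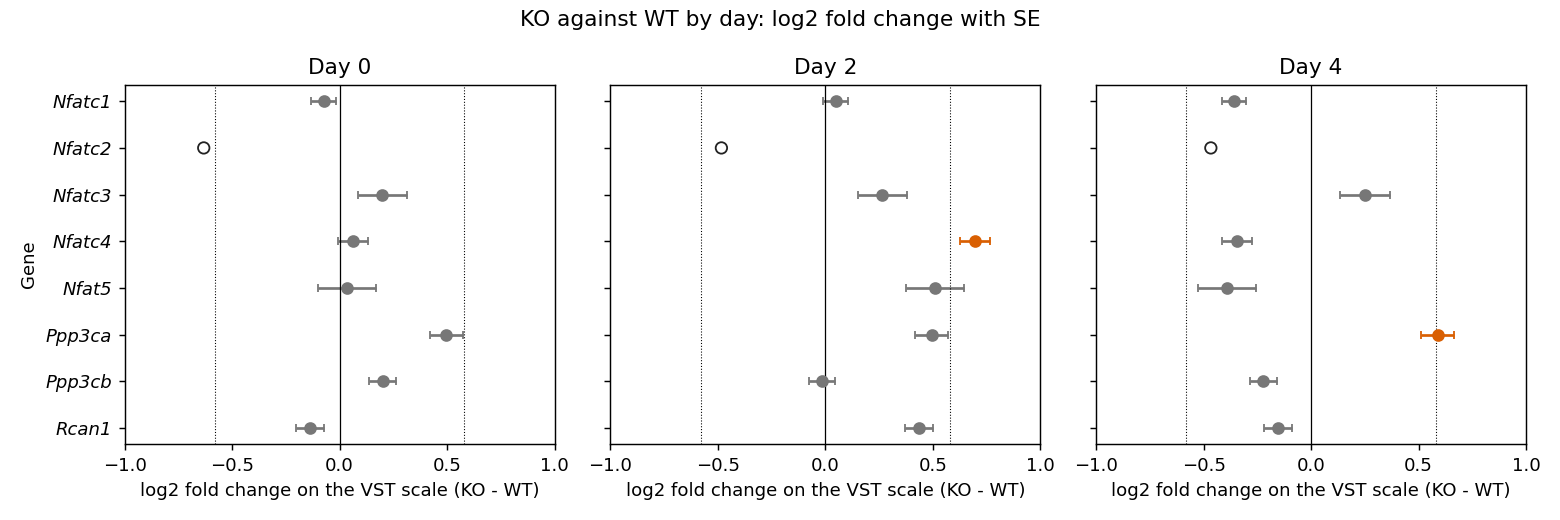
Log2 fold change on the VST scale (KO minus WT, horizontal axis) of each gene at day 0, 2 and 4, with bars for the SE; orange points passed both thresholds, dotted lines mark the fold threshold of 0.58, and the open circle is Nfatc2, which was not tested. Nfatc4 at day 2 (0.70) and Ppp3ca at day 4 (0.59) are the orange points, and Ppp3ca is above 0 in all 3 panels.

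Nfatc4, a widely expressed NFATc factor with roles in neurons and the heart, rose in both genotypes, earlier in KO. In WT it stood at 450 and 465 normalized counts at day 0, 596 and 642 at day 2, and 1939 and 1793 at day 4. In KO-1 it stood at 610 and 491, then 1389 and 1476, then 1340 and 1460. In KO-2 it stood at 449 and 449, then 1232 and 1193, then 1297 and 1309. Both clones thus had at day 2 a level that they kept at day 4, whereas WT differed from day 0 by a log2 value of 0.23 ± 0.08 at day 2 (not called; adjusted p = 0.0275, limma) and ended highest. The KO mean was 2.14-fold the WT mean at day 2 (log2 fold change 0.70 ± 0.07, SE; adjusted p = 1.13e-07, limma) and 0.724 of it at day 4 (-0.34 ± 0.07; adjusted p = 0.00052, limma, below the fold threshold). At day 0 the log2 fold change was 0.06 with 95% confidence limits of -0.09 and 0.21.

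Over time Nfatc4 rose 4.08-fold in WT from day 0 to day 4 (log2 fold change 1.30 ± 0.08; adjusted p = 3.44e-11, limma) and 2.65-fold in KO from day 0 to day 2 (0.87 ± 0.06; adjusted p = 2.57e-10, limma), with 2.7-fold by day 4 in KO. The KO effect itself differed between days. It was greater at day 2 than at day 0 by 0.63 ± 0.10 on the log2 scale (adjusted p = 0.000124, limma), or 0.5786 and just short of the threshold under quantile normalization, and smaller at day 4 than at day 2 by -1.04 ± 0.10 (adjusted p = 1.05e-07, limma). Each clone alone showed both differences, with 0.64 and 0.63 for the first and -1.09 and -0.99 for the second in KO-1 and KO-2. These contrasts with day 2 were added after the data were seen.

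Ppp3ca, the calcineurin A alpha catalytic subunit, was higher in KO at every day. At day 0 it stood at 926 and 935 normalized counts in WT against 1847 and 1541 in KO-1 and 1388 and 1390 in KO-2. At day 2 it stood at 707 and 838 in WT against 1259 and 1287 in KO-1 and 1286 and 1366 in KO-2. At day 4 it stood at 728 and 679 in WT against 1441 and 1225 in KO-1 and 1218 and 1394 in KO-2. The groups did not overlap at any day, and the KO to WT ratios were 1.66, 1.68 and 1.88. The log2 fold changes were 0.50 ± 0.08, 0.49 ± 0.08 and 0.59 ± 0.08 (SE), with adjusted p of 4.28e-05, 2.24e-05 and 2.23e-06 (limma). Only the value of day 4 passed the fold threshold. It dropped to 0.56 without WT day 4 replicate 2, to 0.56 without KO-1 day 4 replicate 1 and to 0.57 without KO-2 day 4 replicate 2. It was 0.60 with KO-1 alone and 0.5778, just short of the threshold, with KO-2 alone, whereas limma-voom called Ppp3ca at all 3 days, with log2 fold changes of 0.71, 0.75 and 0.90. The KO effect on Ppp3ca at day 4 minus that at day 0 was 0.09, with 95% confidence limits of -0.13 and 0.32.

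Ppp3cb, the calcineurin A beta catalytic subunit, followed another course. In WT it stood at 1017 and 1085 normalized counts at day 0, 1550 and 1596 at day 2, and 1993 and 1915 at day 4, and it rose 1.86-fold from day 0 to day 4 (log2 fold change 0.65 ± 0.07; adjusted p = 1.89e-07, limma). Quantile normalization took this value to 0.56, below the threshold. The KO libraries ranged from 1205 to 1356 at day 0, from 1465 to 1655 at day 2 and from 1514 to 1814 at day 4, a 1.24-fold ratio from day 0 to day 4 (0.22 ± 0.05; adjusted p = 0.00111, limma, below the fold threshold). KO libraries thus lay above WT at day 0 and below WT at day 4, with no overlap at either day. The KO effect at day 4 minus that at day 0 was -0.42 ± 0.09 (adjusted p = 0.000947, limma, below the fold threshold), and limma-voom called it at -0.60.

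The balance of the catalytic subunits differed between genotypes. Per kb of exon, the ratio of Ppp3ca to Ppp3cb was 0.782 ± 0.03 (SD, n = 2) in WT at day 0, 0.433 ± 0.0428 at day 2 and 0.318 ± 0.00637 at day 4. In KO it was 1.05 ± 0.113 (SD, n = 4), 0.741 ± 0.0588 and 0.731 ± 0.0544. At each day the lowest KO library was above the highest WT library, and this ratio was not tested. The summed level of both genes per kb was 213, 256 and 292 in WT and 301, 306 and 313 in KO, so that the totals were closest at day 4.

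Rcan1, which binds and restrains calcineurin and is induced by NFAT, had its lowest WT level at day 2, where KO cells were higher. In WT it stood at 470 and 488 normalized counts at day 0, 287 and 250 at day 2, and 618 and 707 at day 4. In KO-1 it stood at 310 and 420, then 504 and 560, then 523 and 574. In KO-2 it stood at 416 and 446, then 532 and 445, then 539 and 549. Both WT libraries lay above all KO libraries at day 0 and day 4 and below them at day 2. Within WT, day 2 differed from day 0 by -0.39 ± 0.07 (adjusted p = 0.000282, limma, below the fold threshold). At day 2 the KO mean was 1.90-fold the WT mean (log2 fold change 0.43 ± 0.06; adjusted p = 1.4e-05, limma, below the fold threshold), and limma-voom called it at 0.93. The KO effect at day 2 minus that at day 0 was 0.57 ± 0.09 (adjusted p = 0.00013, limma, below the fold threshold), and limma-voom called it at 1.17. The KO effect at day 4 minus that at day 2 was -0.59 ± 0.09 (adjusted p = 4.45e-05, limma), close to the fold threshold. Its size dropped to between 0.53 and 0.58 without WT day 2 replicate 2 (-0.55), KO-1 day 2 replicate 2 (-0.56), KO-2 day 2 replicate 1 (-0.58), WT day 4 replicate 2 (-0.53) or KO-1 day 4 replicate 1 (-0.58), each below the threshold. The call was also lost under quantile normalization (-0.52) and with KO-2 alone (-0.56). The internal and distal starts printed above differ in their matches, but counts per gene do not say which start was used.

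Nfat5 likewise had its lowest WT level at day 2. In WT it stood at 1294 and 1361 normalized counts at day 0, 771 and 749 at day 2, and 1965 and 1674 at day 4. In KO-1 it stood at 1767 and 1310, then 1108 and 1380, then 1832 and 1338, and in KO-2 at 1231 and 1239, then 1286 and 1455, then 957 and 1018. Within WT, day 2 differed from day 0 by -0.53 ± 0.16 (adjusted p = 0.0103, limma). The genotypes overlapped at day 0 and day 4 but not at day 2, where the KO mean was 1.72-fold the WT mean (log2 fold change 0.51 ± 0.14; adjusted p = 0.00423, limma, below the fold threshold), and limma-voom called it at 0.77. The KO effect at day 4 minus that at day 2 was -0.90 ± 0.19 (adjusted p = 0.00123, limma), and this call was lost without WT day 4 replicate 1 (-0.81, adjusted p = 0.0158, limma) and with KO-1 alone (-0.62, adjusted p = 0.0114, limma), whereas KO-2 alone gave -1.18. At day 4 the clones parted. Nfat5 was higher in KO-1 than in KO-2 by 0.47 ± 0.10 (adjusted p = 0.00528, limma, below the fold threshold), so KO-1 alone gave -0.16 against WT (adjusted p = 0.322, limma) and KO-2 alone -0.62 (adjusted p = 1.11e-08, limma).

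Nfatc3, which is broadly expressed, was called in no comparison by limma. In WT it stood at 1957 and 1939 normalized counts at day 0, 1643 and 1778 at day 2, and 1839 and 1712 at day 4. The KO libraries ranged from 2128 to 2729, from 1875 to 2387 and from 1772 to 2855, above WT at day 0 and day 2 and overlapping it at day 4. The log2 fold changes were 0.20 ± 0.11, 0.27 ± 0.11 and 0.25 ± 0.11, with adjusted p of 0.211, 0.0643 and 0.0951 (limma). At day 4 KO-1 was higher than KO-2 by 0.40 ± 0.08 (adjusted p = 0.00362, limma, below the fold threshold). The annotation places 219 bases of Esrp2, on the other strand, over exons of Nfatc3, 1.87% of its length, and the library kit does not mark strand.

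Nfatc1, the factor best known from endocardium and osteoclasts, was measured at low counts, from 6 to 264 per library. In WT it stood at 18.5 and 40.3 normalized counts at day 0, 26.1 and 35.7 at day 2, and 183 and 167 at day 4. The KO libraries ranged from 9.64 to 30.2 at day 0, from 33.2 to 43.7 at day 2 and from 54.1 to 84.6 at day 4. The groups overlapped at day 0 and day 2, and at day 4 every KO library lay below both WT libraries, with a WT mean 2.40-fold the KO mean. That difference was -0.36 ± 0.06 on the VST scale (adjusted p = 3.05e-05, limma, below the fold threshold) and -1.23 with limma-voom, which called it. Nfatc1 rose 5.96-fold in WT from day 0 to day 4 (0.61 ± 0.07; adjusted p = 1.26e-07, limma), and this log2 fold change dropped to 0.53, below the threshold, without WT day 0 replicate 1. The WT libraries of day 0 lay far apart, at 18.5 and 40.3, so the 5.96-fold ratio depends strongly on which of them is used. In KO the ratio was 3.61-fold (0.32 ± 0.05; adjusted p = 6.93e-06, limma, below the fold threshold), and limma-voom called it at 1.89.

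Markers of endothelium and endocardium moved with Nfatc1 in part. Cdh5, an endothelial cadherin, averaged 46.1 normalized counts in WT and 2.15 in KO at day 4, and Kdr, a receptor for vascular endothelial growth factor that early mesoderm also expresses, averaged 959 and 214. Tek, the angiopoietin receptor, went the other way, with 29.4 in WT and 954 in KO, and was the most abundant of the list in 16 of the 18 libraries. The summed level of the 3 genes found in the table was 1003 to 1067 in WT and 1093 to 1241 in KO at day 4. Of these 3, limma called 2 in KO versus WT at day 4, against 7.58% of all genes, and limma-voom 3, against 23.9%. The part of such cells in the Nfatc1 difference was not tested.

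Over all 8 genes, limma called 0 in WT from day 0 to day 2, 3 in WT from day 0 to day 4 (Nfatc1, Nfatc4 and Ppp3cb), 1 in KO from day 0 to day 2 and 1 in KO from day 0 to day 4 (Nfatc4 in both). All of these calls were increases. Of all genes, the calls were 6.68%, 13.8%, 3.2% and 6.5% in that order, and for limma-voom they were 19.5%, 34.7%, 16.3% and 27.5%. In WT from day 0 to day 2, 5 of the 8 had an unadjusted p under 0.05 and limma-voom called 2. For the KO effect at day 4 against day 0, limma called 0 of the 7 tested genes, against 6.93% of all genes, with 4 at an unadjusted p under 0.05. limma-voom called 1 of the 7, Ppp3cb, against 14.9% of all genes. limma called 1 (Nfatc4) for day 2 against day 0, where 3.19% of all genes were called, and 3 (Nfatc4, Nfat5 and Rcan1) for day 4 against day 2, where 6.41% were, and limma-voom called 2 (against 7.34%) and 3 (against 13.8%). Both contrasts with day 2 were added after the data were seen, and they share the WT libraries of day 2. The 3 genes that limma called for day 4 against day 2 had a KO effect that was lower at day 4 than at day 2. KO-1 and KO-2 differed in 0 of the 8 genes at each day by limma, against 0.029%, 0.0435% and 0.251% of all genes, with 4, 1 and 2 at an unadjusted p under 0.05, and limma-voom called 0, 0 and 1 (Nfat5), against 0.159%, 0.232% and 2.23% of all genes.

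Per kb of exon, the order of the levels changed with time. In WT at day 0 Nfatc3 was highest at 166 ± 1.09 normalized counts per kb (SD, n = 2), followed by Rcan1 at 155, Ppp3cb at 119, Ppp3ca at 93.2, Nfatc4 at 78.8, Nfat5 at 72.2, Nfatc2 at 21.1 and Nfatc1 at 3.93, and no neighbours overlapped. At day 2 Ppp3cb led at 179 ± 3.76, and only Rcan1 and Ppp3ca, at 86.9 and 77.4, overlapped as neighbours. At day 4 Nfatc4 led at 321 ± 17.8, only Ppp3cb and Rcan1, at 222 and 215, overlapped, and Nfatc2 was last at 16.1. In KO the leading genes were Nfatc3 at day 0 (199 ± 23.2, n = 4), whose range overlapped that of Ppp3ca at 154, and Nfatc4 at day 2 and day 4 (228 ± 22.9 and 233 ± 12.8), the latter overlapping Nfatc3 at 192. Nfatc1 and Nfatc2 were the lowest pair in KO at all 3 days, at 2.7 and 4.17, 5.07 and 2.63, and 9.77 and 4.63.

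Nfatc3 and Nfatc4 made up most of the NFATc mRNA in every group (the stacked plot of the NFATc genes). In WT the share of Nfatc3 in the summed level of Nfatc1 to Nfatc4 per kb was 61.6% ± 0.764, 54.3% ± 0.274 and 29.6% ± 0.17 at day 0, 2 and 4 (SD, n = 2), while Nfatc4 went from 29.2% to 39.7% and 62.7%. In KO Nfatc3 had 68.2% ± 0.407, 44.1% ± 3.87 and 43.4% ± 4.8 (SD, n = 4), and Nfatc4 29.4%, 54.1% and 53.3%. The larger step in the Nfatc4 share fell between day 2 and day 4 in WT and between day 0 and day 2 in KO. Nfatc2 contributed 7.81%, 4.53% and 3.13% in WT and 1.44%, 0.615% and 1.05% in KO. The summed level was 270 ± 1.57, 269 ± 16.4 and 512 ± 29.0 normalized counts per kb in WT and 292 ± 35.4, 421 ± 27.4 and 439 ± 49.8 in KO, so that the KO mean was the higher at day 0 and day 2 and the lower at day 4.

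**Figure D3:**
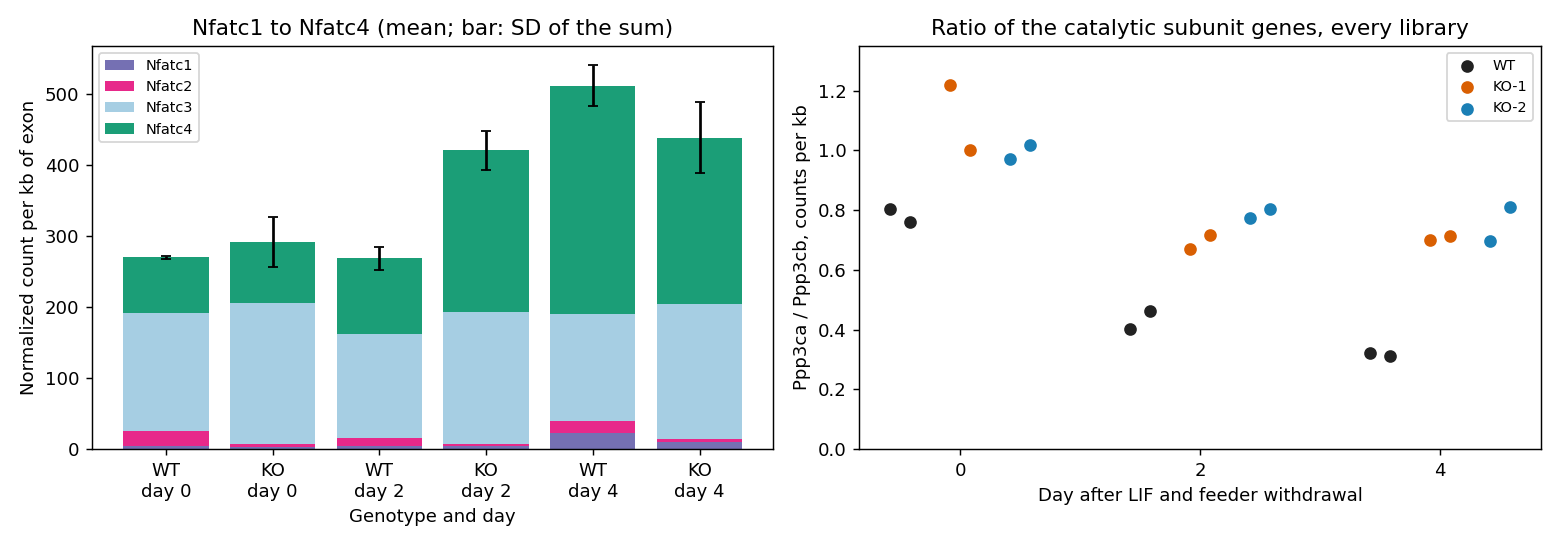
Left, mean normalized count per kb of exon of Nfatc1 to Nfatc4, stacked, for WT (n = 2) and KO (n = 4) at day 0, 2 and 4, with a bar for the SD of the sum; right, the ratio of Ppp3ca to Ppp3cb per kb in every library of WT, KO-1 and KO-2. The Nfatc4 share reaches 54.1% in KO at day 2, against 39.7% in WT, and the lowest KO ratio of each day lies above the highest WT ratio.

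The genes whose deposited values over the 18 libraries were most like those of Nfatc2 were Niban1 (Pearson r = 0.953), Ivns1abp (0.952) and Rnf157 (0.938), among 11525 genes with a mean normalized count of at least 50. Niban1, a stress-responsive gene, averaged 674, 342 and 321 in WT and 60.0, 13.7 and 17.5 in KO at day 0, 2 and 4. For Nsd1 itself r was 0.91, for Ppp3ca it was -0.76, and for the other 6 genes of the set it lay between -0.41 and 0.27. The 18 points share the genotype difference that chose Nfatc2, so these values are descriptions only.

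Other genes of the pathway were taken from fixed lists (the plot of list genes by day). Of 10 measured calcineurin subunits and regulators, limma called 0 at each day in KO versus WT, against 2.61%, 6.38% and 7.58% of all genes, with medians of -0.03, -0.02 and -0.01 on the log2 scale, against -0.003, -0.02 and 0.0 for all genes. Of the 10, 4, 7 and 5 had an unadjusted p under 0.05 at day 0, 2 and 4, and limma-voom called 1, 2 and 3, against 13.3%, 23.9% and 23.9% of all genes. The genes named next were chosen after their values were seen. Rcan2, a calcineurin regulator related to Rcan1, averaged 96.2 ± 19.3 normalized counts in WT and 7.51 ± 2.59 in KO at day 4 (-0.55 ± 0.05; adjusted p = 1.76e-08, limma, below the fold threshold). Ppp3cc, the calcineurin A gamma subunit, averaged 79.7 ± 13 and 33.2 ± 10.9 at day 0. The regulatory subunit Ppp3r1 averaged 1282 in WT and 1623 in KO at day 0 and 2012 and 1634 at day 4, with log2 fold changes of 0.25 and -0.23 (adjusted p = 0.00117 and 0.00132, limma, both below the fold threshold). Ppp3r1 and Ppp3cb thus lay on the same side of WT at day 0, and again at day 4. At day 2 they parted. Ppp3r1 averaged 1425 in WT and 1736 in KO with no overlap, whereas the Ppp3cb libraries of the genotypes overlapped.

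**Figure D4:**
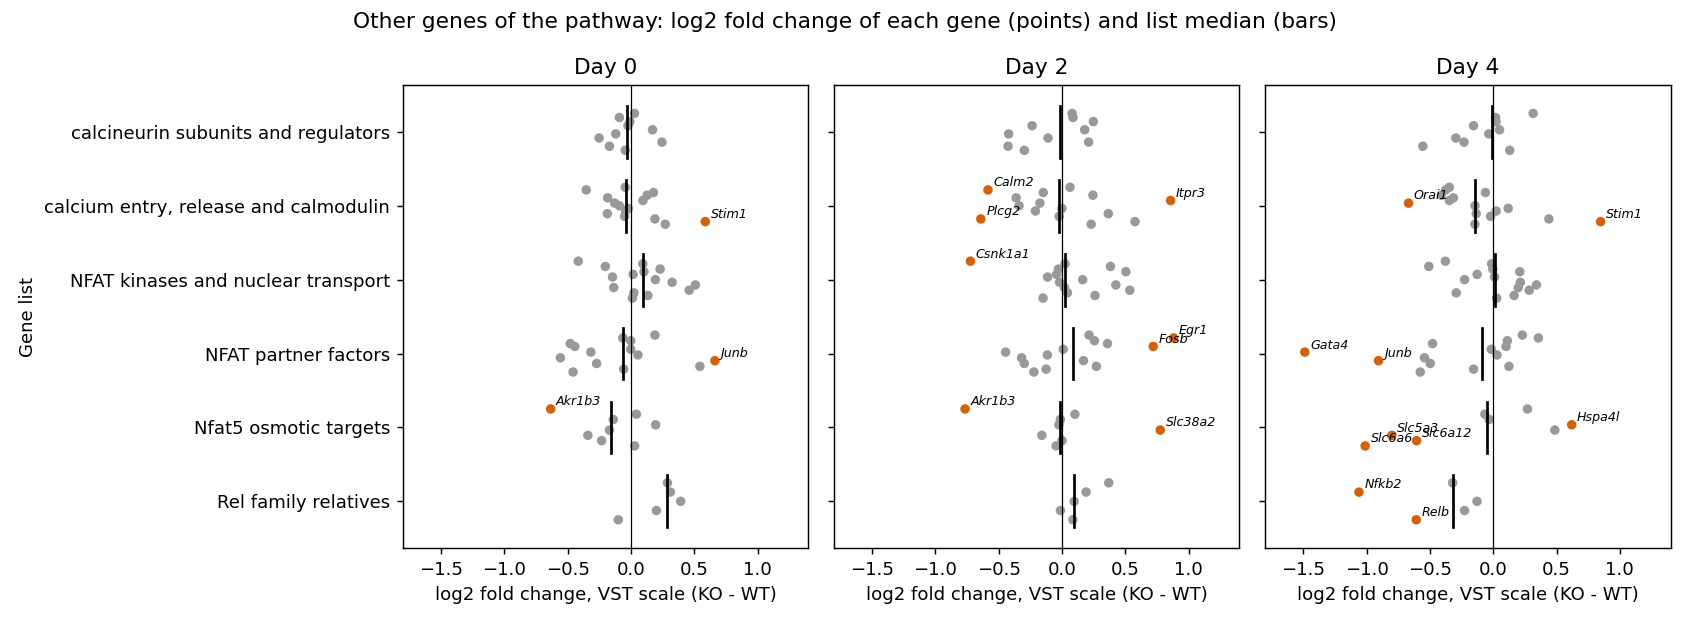
Log2 fold change on the VST scale (KO minus WT, horizontal axis) of each measured gene in 6 pathway lists at day 0, 2 and 4; points are genes, orange and named where both thresholds were passed, and vertical bars are list medians. The calcineurin list has no orange point, Stim1 is called at day 0 (0.59) and day 4 (0.85), and Gata4 lies furthest left at day 4 (-1.49).

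In the list of calcium entry, release and calmodulin genes, 1 of 15 was called higher at day 0, 1 higher and 2 lower at day 2, and 1 higher and 1 lower at day 4, with medians of -0.04, -0.02 and -0.14, while 2.61%, 6.38% and 7.58% of all genes were called. limma-voom called 1, 6 and 7 of the 15, against 13.3%, 23.9% and 23.9%. At day 4 these were 2 higher (Stim1 and Plcg2) and 5 lower (Itpr1, Itpr2, Itpr3, Orai1 and Orai2). Stim1, the calcium sensor of the endoplasmic reticulum, averaged 601 ± 16.4 in WT and 1158 ± 90.8 in KO at day 0, 817 ± 77.3 and 1480 ± 148 at day 2, and 548 ± 38.0 and 1395 ± 157 at day 4. Its log2 fold changes were 0.59, 0.58 and 0.85, with adjusted p of 5.89e-06, 3.61e-06 and 1.18e-08 (limma), the value of day 2 falling just short of the fold threshold. Orai1, the channel that STIM1 opens, was 646 ± 28.4 in WT and 250 ± 44.4 in KO at day 4 (-0.67 ± 0.07; adjusted p = 1.26e-07, limma). Thus Stim1 was higher and Orai1 lower in KO at day 4, which does not hold for every sensor and channel gene of the list. Itpr3, an inositol trisphosphate receptor that releases stored calcium, was 479 ± 46.5 in WT and 1274 ± 162 in KO at day 2 (0.86 ± 0.09; adjusted p = 1.92e-07, limma). At day 4 Itpr3 was lower in KO, with 627 in WT and 400 in KO (-0.35; adjusted p = 0.00443, limma, below the fold threshold; limma-voom -0.68). Plcg2, the phospholipase C gamma that makes inositol trisphosphate, was 3662 ± 40.2 and 2137 ± 107 at day 2 (-0.64 ± 0.09; adjusted p = 9.39e-06, limma). At day 4 Plcg2 went the other way, with 1076 in WT and 1674 in KO (0.44; adjusted p = 0.000585, limma, below the fold threshold). limma-voom called that increase at 0.61. Calm2, a calmodulin gene outside the naming rule, had -0.58 at day 2 (adjusted p = 0.000277, limma).

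Of 15 measured NFAT kinases and transport factors, limma called 0 at day 0, 1 lower at day 2 and 0 at day 4, with medians of 0.09, 0.02 and 0.01, against 2.61%, 6.38% and 7.58% of all genes called. At day 0, 2 and 4, 8, 7 and 10 of them had an unadjusted p under 0.05, and limma-voom called 2, 5 and 3, against 13.3%, 23.9% and 23.9% of all genes. The gene called was Csnk1a1, casein kinase 1 alpha, which phosphorylates NFATc proteins and averaged 7744 ± 269 in WT and 4446 ± 99.3 in KO at day 2 (-0.72 ± 0.06; adjusted p = 8.49e-09, limma). At day 0 and day 4 its log2 fold changes were -0.42 and -0.38 (adjusted p = 2.66e-05 and 3.79e-05, limma, both below the fold threshold).

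Of 14 partner factors, 1 was called higher at day 0 (Junb), 2 higher at day 2 (Egr1 and Fosb) and 2 lower at day 4 (Gata4 and Junb), with medians of -0.06, 0.09 and -0.08, while 2.61%, 6.38% and 7.58% of all genes were called. limma-voom called 7, 5 and 7 of the 14, against 13.3%, 23.9% and 23.9% of all genes, and at day 4 these were 1 higher and 6 lower. Gata4, the cardiac and endodermal GATA factor that binds NFATc4, averaged 700 ± 41.1 in WT and 35.2 ± 10.0 in KO at day 4 (-1.49 ± 0.06; adjusted p = 2.5e-14, limma). Junb, an AP-1 subunit, averaged 1083 ± 79.0 in WT and 2045 ± 239 in KO at day 0 (0.66 ± 0.08; adjusted p = 2.19e-06, limma) and 1809 ± 71.1 and 723 at day 4 (-0.91 ± 0.08; adjusted p = 8.47e-09, limma). The immediate early genes Egr1 and Fosb were lowest in WT at day 2, the day at which Rcan1 and Nfat5 were also lowest in WT. Egr1 averaged 200 ± 36.0 in WT and 726 ± 132 in KO at day 2 (0.88 ± 0.08; adjusted p = 1.78e-08, limma), and Fosb 16.3 ± 4.66 and 183 ± 65.8 (0.72 ± 0.08; adjusted p = 4.55e-07, limma). At day 0 Fosb went the other way, with 1294 in WT and 816 in KO (-0.44; adjusted p = 0.000291, limma, below the fold threshold). limma-voom called that decrease at -0.66.

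Of 8 measured targets of Nfat5 in osmotic stress, 1 was called lower at day 0, 1 higher and 1 lower at day 2, and 1 higher and 3 lower at day 4, with medians of -0.15, -0.02 and -0.05, against 2.61%, 6.38% and 7.58% of all genes called, and limma-voom called 3, 2 and 4, against 13.3%, 23.9% and 23.9%. The lower genes of day 4 were osmolyte transporters. Slc6a6, the taurine transporter, averaged 7491 ± 273 in WT and 3444 ± 634 in KO (-1.01 ± 0.11; adjusted p = 3.05e-07, limma), and Slc5a3, the myo-inositol transporter, 1088 ± 23.1 and 426 ± 110 (-0.80 ± 0.08; adjusted p = 9.65e-08, limma). Slc6a12, the betaine transporter, averaged 58.7 in WT and had no count in the 4 KO libraries of day 4, and Hspa4l, a heat shock protein, was the gene called higher, both named after their values were seen. Akr1b3, aldose reductase, averaged 5157 ± 31.3 in WT and 3118 ± 294 in KO at day 0 (-0.63 ± 0.11; adjusted p = 0.000231, limma) and 7896 ± 385 and 4401 ± 457 at day 2 (-0.77 ± 0.11; adjusted p = 1.43e-05, limma). At day 4 Akr1b3 averaged 2851 in WT and 3600 in KO and was not called (0.27; adjusted p = 0.0683, limma). Slc38a2, an amino acid transporter, was the gene called higher at day 2, with 8957 ± 263 and 15828 ± 1390 (0.78 ± 0.08; adjusted p = 2.98e-07, limma). At day 4 Slc38a2 averaged 7672 in WT and 11022 in KO, unlike the transporters called lower then (0.49; adjusted p = 8.79e-05, limma, below the fold threshold). At day 2, when Nfat5 was higher in KO, 1 target was thus called in each direction.

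Of the 5 Rel family genes, whose DNA-binding domain is related to that of NFAT, limma called 0 at day 0 and day 2 and 2 lower at day 4, with medians of 0.29, 0.10 and -0.32, against 2.61%, 6.38% and 7.58% of all genes called, of which 3.91% were lower at day 4. At day 0, 2 and 4, 4, 2 and 4 of them had an unadjusted p under 0.05, and limma-voom called 2, 1 and 2, against 13.3%, 23.9% and 23.9% of all genes. Nfkb2, the precursor of p52, averaged 2167 ± 29.7 in WT and 761 ± 40.2 in KO at day 4 (-1.06 ± 0.07; adjusted p = 2.94e-10, limma), and Relb, its partner, 674 ± 12.3 and 292 ± 27.4 (-0.61 ± 0.05; adjusted p = 4.24e-09, limma). At day 0 Nfkb2 went the other way, with 310 in WT and 486 in KO (0.31; adjusted p = 0.00324, limma, below the fold threshold). limma-voom called that increase at 0.64.

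The state of the cultures differed between genotypes alongside these genes. Stem cell markers summed to 75714 to 77424 normalized counts in WT and 75515 to 78594 in KO at day 0, to 17725 to 18817 and 23125 to 26880 at day 2, and to 16247 to 16678 and 18503 to 20541 at day 4. These sums hid genes that went opposite ways, since limma called 5 of the 7 higher and 1 lower in KO at day 2, against 4.01% and 2.37% of all genes, and again at day 4, against 3.67% and 3.91%. Sox2 averaged 235 in WT and 4293 in KO at day 4 and Esrrb 98.2 and 1896, whereas Tdgf1 averaged 8323 and 3642 and Pou5f1, not called then, 5417 and 3537. Primitive streak and mesoderm markers reached 29330 to 30113 in WT at day 4 but 338 to 880 in KO, led by Eomes or T. Of the 6 streak genes, 5 were called lower in KO at day 4, against 3.91% of all genes, as was Gata4. Of the 7 tested genes of the set, Nfat5 (-0.39), Nfatc1 (-0.36), Nfatc4 (-0.34), Ppp3cb (-0.22) and Rcan1 (-0.15) had negative values then and were not called, whereas Ppp3ca was called higher and Nfatc3 had 0.25, not called. Endoderm markers summed to 593 to 644 in WT and 44.0 to 139 in KO at day 4, mainly through Gata6, since Sox17, a defining gene, was at 20.8 and 3.18. Foxa2 of the same list averaged 15.5 in WT and 59.2 in KO at day 4 and was not called. Neuroectoderm markers summed to 5249 to 5630 and 1983 to 2893, with Nes, also present in other progenitors, the most abundant, whereas Sox1 was 3.02 in WT and 598 in KO. The part of cell composition in the day 4 values of the set was not tested.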

How the data were processed

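Polyadenylated RNA of 18 libraries was sequenced. The authors trimmed reads with Trim Galore 0.6.7, aligned them to mm39 with STAR 2.7.11a, counted genes with featureCounts 2.0.6 and deposited log2-scale values from the variance stabilizing transformation of DESeq2 1.42.0. Genes with an average count below 1 had been removed. The kit (TruSeq v2) does not mark strand.

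The transformation was inverted in Python 3.11.15, which returned whole counts, within 0.05, for 100% of values, together with the size factors. Of counts from 1 to 20, 74.9% were even, so that a fragment may be counted through both mates and counting error may be larger than the counts show. Normalized counts are counts divided by these factors. Normalized counts per kb used exon lengths from GENCODE M21 (GRCm38), which covered 99.5% of genes.

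The deposited values were fitted by limma 3.58.1 (R 4.3.3) with a trended prior in 6 groups of genotype and day, both clones pooled, or in 9 groups of line and day for clone comparisons, with Benjamini-Hochberg adjustment over 20703 genes. The thresholds of 0.01 on the adjusted p and 0.58 on the size of the log2 fold change are those of the study, which applied them to fold changes fitted to raw counts. On differences of VST values the same 0.58 is stricter, so calls here are not the calls of the study. A count test was not the main test because the deposited unit is not counts. limma-voom on the recovered counts was an alternative. On counts simulated for KO versus WT at day 4 over 20703 genes, limma called 75 of 91 genes changed 4-fold, 10 of 109 changed 2-fold and 1 of 20503 unchanged, and limma-voom 87, 24 and 2. The simulation gave every gene the same dispersion and no difference between clones. These rates therefore describe that setting and not the detection rate in these libraries. The closest replicates, those of KO-2 at day 0, had a mean chi-square per gene of 2.22 over 12595 genes, or 1.11 if every fragment was counted 2 times (chi-square p = 1.1e-17), close to counting noise, and were kept as 2 libraries. The replicates furthest apart were those of KO-1 at day 0 and at day 4. Each of these pairs had a mean of 14.0, or 6.98 and 7.0 if every fragment was counted 2 times.

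Named genes were the 8 members, Nsd1, up to 4 genes per pathway list with the largest fold change among those called and not overlapping, cell type markers, and the 3 genes most like Nfatc2. Rcan2, Ppp3cc, Ppp3r1, Calm2, Slc6a12, Hspa4l, Itpr1, Itpr2 and Orai2 were named outside this rule. The members and lists were chosen with earlier results of these data known.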

Additional observations from a re-analysis of the deposited data

Results flagged for a closer look

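In the groups of 4 KO libraries, 1 library stood apart from the others in 3 of the 24 groups tested by the gap over the range, where chance gives about 1 in 20. Nfatc2 in KO at day 4 had a ratio of 0.851, with KO-1 replicate 1 highest at 69.9 normalized counts. Nfat5 in KO at day 0 had a ratio of 0.852, with KO-1 replicate 1 highest at 1767. Ppp3cb in KO at day 4 had a ratio of 0.897, with KO-1 replicate 1 highest at 1814. The library of day 4 is the same in the first and the last of these.

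The KO effect differed between days by the test of the difference itself for Nfatc4 between day 0 and day 2 (0.63 on the log2 scale), and between day 2 and day 4 for Nfatc4 (-1.04), Nfat5 (-0.9) and Rcan1 (-0.59). These contrasts were added after the data were seen.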

How the results depend on the processing

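limma-voom with the authors' size factors called 1, 4 and 2 of the 7 genes in KO versus WT at day 0, 2 and 4, 2 of 8 in WT from day 0 to day 2, 2 of 8 in KO from day 0 to day 4, 1 and 2 of 7 for the KO effect of day 4 and of day 2 against day 0, and 1 of 8 between clones at day 4. Scaled to library totals it called 1, 4 and 2 in KO versus WT, 1 in WT from day 0 to day 2, 2 in KO from day 0 to day 4, 2 for the KO effect of day 2 against day 0, and 1 between clones at day 4, where 13.2%, 23.7%, 23.8%, 19.4%, 27.4%, 7.29% and 2.06% of all genes were called. On log2(normalized count + 1) the calls were 1 at day 0, 4 at day 2, 3 in WT from day 0 to day 2, 2 in KO from day 0 to day 4, 1 and 2 for the KO effect of day 4 and day 2 against day 0, and 1 between clones at day 4, where 12.9%, 25%, 22%, 26.6%, 15%, 9.25% and 1.57% of all genes were called. For the KO effect of day 2 against day 0, quantile normalization gave 0 and median centring, KO-1 alone and KO-2 alone 2 each, against 3.35%, 3.4%, 2.99% and 4.84% of all genes, and KO-1 alone called 1 at day 0, against 2.89%. At an adjusted p under 0.05 with no fold threshold the calls were 2, 4 and 5 in KO versus WT, 5 in each of the 4 time comparisons within WT and KO, 3 and 2 for the KO effect of day 4 and day 2 against day 0, and 2 between clones at day 4. Of all genes, that rule called 29.7%, 46% and 37.2% in KO versus WT, 35.7% to 49% in the time comparisons, 27% and 21.7% for the KO effect, and 12.8% between clones. With 1 library left out, the calls ranged from 0 to 1 in KO versus WT at day 4, from 2 to 3 in WT from day 0 to day 4, from 1 to 2 for the KO effect of day 2 against day 0, from 2 to 3 for that of day 4 against day 2, and from 0 to 1 between clones at day 4. Counts in the other comparisons did not change with a library left out, where a group of 1 is assumed to vary as the rest do.

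Directions turned only for values near 0 that were not called. Nfat5 at day 0 was -0.0326 under quantile normalization and -0.0732 in KO-2 alone, Nfatc4 at day 0 was -0.0139 in KO-2 alone, and Ppp3cb at day 2 was 0.0385 with median centring and 0.0315 in KO-1 alone. With a library left out, Nfatc1 at day 0 ranged from -0.1544 to 0.0072, Nfat5 at day 0 from -0.0533 to 0.0731 and Ppp3cb at day 2 from -0.0385 to 0.0046. The cause of these shifts was not tested. Replicate numbers did not pair the libraries, since the correlation of deviations between groups averaged -0.0476 over 36 pairs (from -0.612 to 0.636) and 0.0702 over the 9 pairs of the same day (from -0.497 to 0.476), and a replicate block changed none of the 13 counts, with 0, 1 and 1 called in KO versus WT at day 0, 2 and 4. Nfatc1 and Nfatc2 in KO rest on few counts, down to 6 and 10 in a library, where counting error is largest.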
